A study of Mus musculus with 2 samples.

Results

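Ribosomal protein genes encode the proteins that, together with ribosomal RNA, build the small and the large subunit of the cytoplasmic ribosome. They were chosen by symbol: every gene whose name begins with Rpl or Rps and a digit was taken, apart from names with a pseudogene suffix, which left 92 of the 31053 listed genes. Of these, 73 are core members (30 of the small and 43 of the large subunit), 8 are paralogues, which are second copies with a diverged sequence or expression, and 11 carry a matching symbol but encode no ribosomal protein. These 11 are kinases named after ribosomal protein S6 or their relatives, and Rps19bp1. Another 9 pseudogene symbols were left out, and some ribosomal proteins with other names (Rplp0, Rplp1, Rplp2, Rpsa, Fau and Rack1) were followed beside the members.

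Each core protein is needed in about one copy per ribosome, and cells make these proteins in step. Their mRNAs are short and abundant, and they typically begin with a C followed by a run of pyrimidines, the 5′ terminal oligopyrimidine or TOP motif, through which mTORC1 and LARP1 adjust their translation. In the uterus the share of a cell's mRNA that codes for ribosomal proteins differs between cell types.

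The data are single-cell RNA sequencing of whole mouse uterus on gestational day 4, with 1 library of Mettl14 d/d and 1 library of Mettl14 f/f tissue. Mettl14 encodes a subunit of the enzyme that places N6-methyladenosine on RNA, f/f denotes alleles flanked by recombination sites and d/d deleted alleles. The labels give neither the Cre driver nor the deleted exons, nor the age or number of the mice. RNA was counted in 3′ tags with unique molecular identifiers (UMIs), about 1 tag for each captured molecule, so values were not divided by gene length. CPM are UMIs of a gene divided by all UMIs of the class and library, in counts per 1000000. Cells were put in classes by marker genes, and each class name below stands for cells that are like that type by those markers.

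Sequencing gave 44745031 UMIs in 6661 d/d barcodes and 55080123 UMIs in 8164 f/f barcodes. Of these, 5977 d/d and 7095 f/f cells were kept, and 8 barcodes occurred in both libraries. Mettl14 stood at 5.53 CPM (223 UMIs) over kept d/d cells and at 15.5 CPM (753 UMIs) over kept f/f cells. Tags come from the 3′ end, which the deletion may spare, so this level does not tell how much full-length mRNA was left. Each genotype has 1 library, so differences lack a replicate check and were not tested; 95% intervals cover counting error only. The defining markers of each compared class all had UMIs in both libraries. Immediate early and heat shock genes, which respond to tissue dissociation, had a median log2 fold (d/d over f/f) of 2.20 in stroma, 1.71 in pericytes, 1.55 in blood endothelium, 1.40 in macrophages or monocytes, 1.08 in smooth muscle, 0.38 in epithelium and 0.00 in dendritic cells; their part in the results below was not tested.

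The pattern for which this gene family is known was found in some of the windows around the transcription start. In the RefSeq promoter table (GRCm38.p6), 54 of the 73 core genes were matched, with 64 start entries. A C followed by at least 4 bases that are each C or T, on the sense strand and within 3 bases of the start, was found in 35.9% of core entries and in 11.5% of all 32851 entries of the table. Paralogues held it in 30.0% of 10 entries, genes of translation factors in 16.2% of 37 and ribosome biogenesis genes in 10.6% of 66. A match is a description of letters and not a measured start, and annotations differ. For the members shown next, the RefSeq start and the gene start in GENCODE M21 lie 2 bases (Rps21) to 22 bases (Rps15) apart in 5 of them, 137 bases apart for Rpl41 and 2614 bases apart for Rpl18. Below are 30 bases (10 before the RefSeq start, then 20 from it, 5′ to 3′) for core members that stood apart from the rest in the comparison of the libraries, with the pattern in capitals where it was found. Of 12 such members, 8 had an entry, and 7 are shown, 4 that were higher in d/d (Rpl26, Rps21, Rpl10, Rpl41) and 3 that were lower (Rpl13a, Rpl18, Rps15). They lie at chr11:68901556-68901585 (plus strand), chr2:180257369-180257398 (plus), chrX:74270806-74270835 (plus), chr10:128549149-128549178 (minus), chr7:45128726-45128755 (minus), chr7:45718061-45718090 (plus) and chr10:80292421-80292450 (plus), in that order.
Rpl26: ggcaacttacagaaccggaagtcgcgtgta
Rps21: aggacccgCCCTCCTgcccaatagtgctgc
Rpl10: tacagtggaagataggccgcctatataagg
Rpl41: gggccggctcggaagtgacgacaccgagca
Rpl13a: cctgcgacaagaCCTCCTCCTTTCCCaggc
Rpl18: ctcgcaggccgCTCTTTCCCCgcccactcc
Rps15: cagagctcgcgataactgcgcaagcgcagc
The pattern was present in 1 of the 4 matched genes that were higher in d/d and in 2 of the 4 that were lower. Rpl10a, a lower gene that had an entry but is not shown, held no match. For Rps21 a second RefSeq start on chromosome 2 had no match.

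The core genes together gave between 11.5% and 32.6% of all UMIs, depending on class and library. Epithelium had the widest gap between the libraries among the 7 compared classes: core genes gave 28.5% of UMIs in 144 d/d cells and 19.9% in 178 f/f cells. Smooth muscle (22.9% in d/d and 18.9% in f/f), pericytes (22.0% in d/d and 19.6% in f/f) and dendritic cells (27.6% in d/d and 23.8% in f/f) also had more in d/d. Macrophages or monocytes had less in d/d, at 16.8% in d/d and 20.9% in f/f, as did blood endothelium at 21.3% in d/d and 22.9% in f/f, with the exceptions by setting given below. In stroma the shares were 29.3% in d/d and 29.7% in f/f. These sums rest on 142098 to 10006899 core UMIs, and their counting intervals are narrow, such as 28.4 to 28.5% in d/d epithelium. Cells within a class vary far more: the interquartile range of d/d epithelial cells was 24.7 to 30.1% and that of f/f epithelial cells 17.1 to 22.4%. In the other 6 compared classes these ranges over cells overlapped between the libraries.

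**Figure D1:**
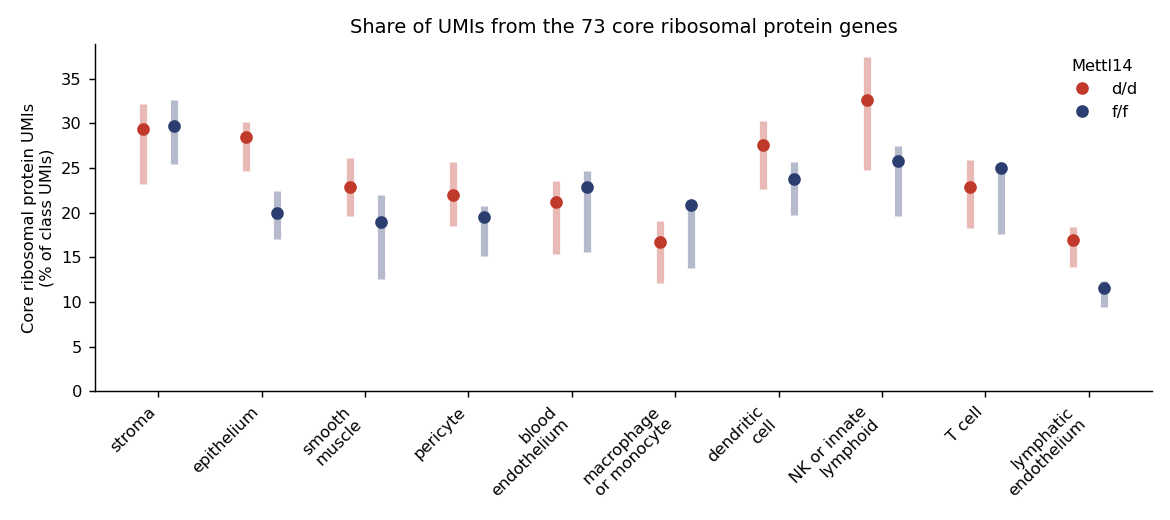
Share of UMIs from the 73 core ribosomal protein genes (y axis, percent of the class total) in 10 cell classes (x axis); points are summed shares per library, d/d left in red and f/f right in blue, and bars the interquartile range of the cells. Only in epithelium and lymphatic endothelium do the bars of the libraries not overlap.

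As log2 ratios of d/d over f/f, the summed core share stood at 0.51 in epithelium (0.51 to 0.52), 0.28 in smooth muscle (0.27 to 0.28), 0.21 in dendritic cells (0.20 to 0.22) and 0.17 in pericytes (0.16 to 0.17). It stood at -0.02 in stroma (-0.02 to -0.01), -0.11 in blood endothelium (-0.11 to -0.10) and -0.32 in macrophages or monocytes (-0.33 to -0.31). The 3 classes below 0 did not keep that sign under every setting: with edgeR's TMM scaling, which assumes that most genes do not differ, stroma stood at 0.03 and macrophages or monocytes at 0.15, stroma at 0.25 in its largest shared cluster, and blood endothelium at 0.05 among cells of 3000 to 10000 UMIs. The 4 classes above 0 kept their sign under each setting tried, but the size moved: from 0.27 to 0.72 in epithelium, 0.11 to 0.45 in smooth muscle, 0.12 to 0.62 in dendritic cells and 0.07 to 0.41 in pericytes.

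In 3 further classes with 36 to 258 cells per library only levels are given. Core genes made up 32.6% of UMIs in 36 d/d and 25.8% in 223 f/f natural killer (NK) or innate lymphoid cells, 22.9% in 258 d/d and 25.0% in 58 f/f T cells, and 17.0% in 61 d/d and 11.5% in 81 f/f lymphatic endothelial cells. Lymphatic endothelium had the lowest share of the 10 classes in f/f, and macrophages or monocytes in d/d. The balance between the subunits varied little: small subunit genes gave 46.4 to 48.5% of core UMIs in the d/d classes and 46.6 to 49.1% in the f/f classes.

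The epithelial difference held against each part of the f/f epithelium. Among f/f cells, 73 luminal-like ones had a core share of 18.4% and 104 glandular-like ones of 21.4%, while 143 of the 144 d/d cells matched neither part and had 28.5%. The log2 ratio of the share was 0.63 with the luminal-like and 0.41 with the glandular-like f/f cells as the comparison. Depth moved with it: the median was 15926 UMIs in d/d and 9289 UMIs in f/f epithelial cells. A sub-cluster of 14 d/d and 0 f/f cells, with the mitotic genes Cdk1 and Cenpf among its leading genes, had a median of 43424.5 UMIs. The part of this sub-cluster in the summed d/d share was not tested. With cells weighted equally the log2 ratio was 0.49. Among cells of 3000 to 10000 UMIs the ratio was 0.27; depth was not matched within that range, and its part in the difference was not tested. Stromal markers, a sign of RNA from other cells, summed to 32.6 CPM in d/d and 178 CPM in f/f epithelium. An epithelial sub-cluster of 19 d/d and 95 f/f cells with markers of other classes was left out, and with it kept the log2 ratio was 0.40.

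In stroma the libraries fell mostly into different clusters. The main d/d cluster (1138 d/d cells) had a core share of 30.7%, and 3 clusters of 940 to 1664 f/f cells had 30.1 to 31.2%. In cluster 6, the stromal cluster with at least 100 cells of each library, the share was 22.7% over 496 d/d cells and 19.1% over 345 f/f cells, a log2 ratio of 0.25. In cluster 11 it was 28.4% over 48 d/d cells and 27.7% over 378 f/f cells. Cluster 6 was therefore the low end of stroma in both libraries, and it held more of the d/d than of the f/f stroma.

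In macrophages or monocytes several measures moved with the lower d/d share. Mitochondrially encoded genes gave 1.56% of UMIs in d/d and 2.87% in f/f, median depth was 4362 UMIs in d/d and 2000.5 UMIs in f/f, and stromal markers summed to 276 CPM in d/d and 1843 CPM in f/f, against 6030 CPM in d/d and 4343 CPM in f/f stroma itself. All 8 stromal markers had UMIs in both macrophage libraries, so their defining genes were not at 0. Stromal marker sums were also lower in d/d than in f/f smooth muscle (697 CPM in d/d and 1313 CPM in f/f), pericytes (1117 CPM in d/d and 1962 CPM in f/f), blood endothelium (147 CPM in d/d and 372 CPM in f/f) and dendritic cells (182 CPM in d/d and 440 CPM in f/f). Their part in the ribosomal protein values was not tested.

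Gene by gene, most core members lay on one side of 0 in epithelium, smooth muscle, dendritic cells, pericytes and macrophages or monocytes, while in stroma and blood endothelium they lay on both sides. The median log2 fold of the 73 core genes, called the common shift here, was 0.44 in epithelium, 0.24 in smooth muscle, 0.19 in dendritic cells, 0.16 in pericytes, -0.08 in stroma (0.21 in the largest shared cluster), -0.09 in blood endothelium (0.05 among cells of 3000 to 10000 UMIs) and -0.37 in macrophages or monocytes (0.10 with TMM). Over all genes that reached 50 UMIs in either library the median was -0.10, -0.12, -0.11, -0.17, -0.14, -0.05 and -0.06 in the same order of classes. Of the 73 core genes, 67 lay above 0 in epithelium, 61 in smooth muscle, 60 in dendritic cells, 51 in pericytes, 28 in stroma, 26 in blood endothelium and 6 in macrophages or monocytes. Small and large subunit genes had medians of 0.43 and 0.44 in epithelium, -0.41 and -0.31 in macrophages or monocytes and 0.12 and 0.27 in dendritic cells. The interquartile range of the core genes ran from -0.30 to 0.08 in stroma and from -0.30 to 0.06 in blood endothelium, wider than the distance of their medians from 0, and from 0.17 to 0.66 in epithelium and -0.53 to -0.24 in macrophages or monocytes. All 73 passed the minimum of 50 UMIs in each of the 7 classes.

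**Figure D2:**
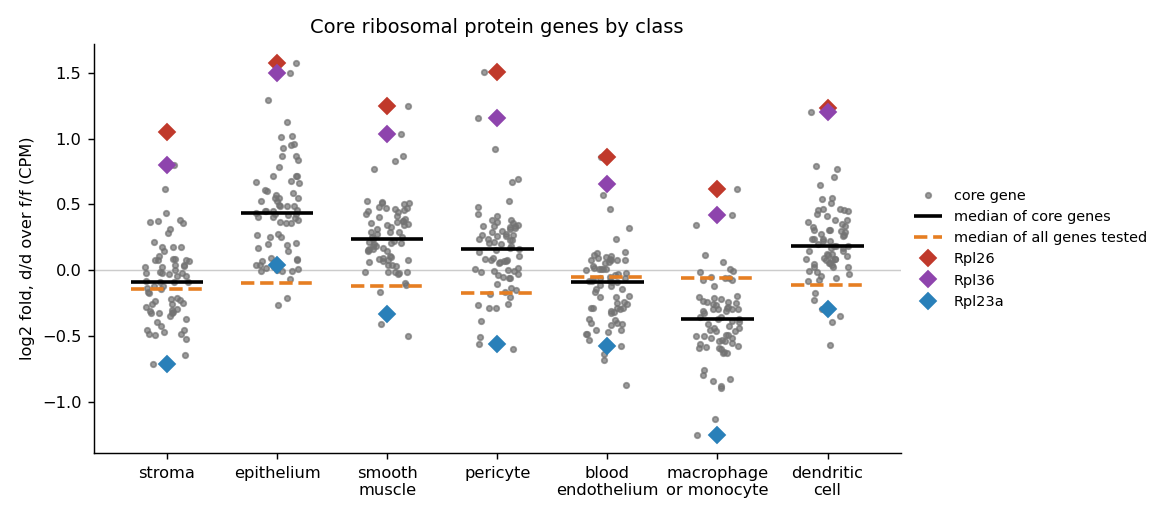
log2 fold (d/d over f/f, y axis) of each of the 73 core genes as a grey point in 7 compared classes (x axis), with the core median as a black line, the median of all genes tested as a dashed orange line, and Rpl26, Rpl36 and Rpl23a as coloured diamonds. The core median runs from 0.44 in epithelium to -0.37 in macrophages or monocytes (0.10 with TMM), and Rpl26 and Rpl36 lie above it and Rpl23a below it in each class.

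Few members lay far from the common shift. A member was taken as off the common shift where its fold differed from the core median by at least 1.5-fold, a log2 of 0.585, and 61 of the 73 core genes were off in none of the 7 classes. In stroma 3 members were off on the higher and 1 on the lower side of 73, where 16.5% and 16.3% of all genes tested lay as far above and below the same line. In epithelium the counts were 4 and 2 (all genes 7.59% and 46.7%), in smooth muscle 4 and 2 (6.64% and 30.2%), in pericytes 3 and 3 (10.6% and 31.5%) and in blood endothelium 3 and 2 (14.5% and 8.41%). In macrophages or monocytes they were 3 and 2 (35.4% and 10.1%) and in dendritic cells 3 and 1 (12.4% and 30.9%). The line is the median of these same core genes, so they are centred on it by construction, while all genes are not. The shares of all genes also include genes with few UMIs, where counting error is wide. The shares therefore cannot tell whether core genes kept closer together than other genes. No core gene was off in both directions. The members off on the higher side in at least 1 class were Rpl26, Rpl36, Rps21, Rpl21, Rpl10 and Rpl41, and those off on the lower side were Rpl23a, Rpl13a, Rps15, Rpl18, Rpl7 and Rpl10a. Many smaller offsets also kept their side: 19 core genes lay above the common shift and 17 below it in all 7 classes. These classes share 2 libraries, so they are not independent observations of a genotype.

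Rpl26, a large subunit protein that sits beside the exit of the peptide tunnel and in human cells also binds p53 mRNA, was off the common shift on the higher side in all 7 classes. The gene (ENSMUSG00000060938) lies on the plus strand at chr11:68901583-68906989 in GRCm38. It stood at 2937 CPM in d/d and 1418 CPM in f/f stroma, at 3020 CPM (12331 UMIs) in d/d and 1013 CPM (2191 UMIs) in f/f epithelium, and at 2336 CPM in d/d and 986 CPM in f/f smooth muscle. In pericytes it had 2214 CPM in d/d and 781 CPM in f/f, in blood endothelium 2056 CPM in d/d and 1131 CPM in f/f, in macrophages or monocytes 1476 CPM in d/d and 960 CPM in f/f, and in dendritic cells 2684 CPM in d/d and 1141 CPM in f/f. Each d/d value was above the f/f value of its class, and all 7 d/d values were above the highest f/f value. The log2 fold was 1.58 in epithelium (1.51 to 1.64), 1.25 in smooth muscle, 1.23 in dendritic cells, 1.05 in stroma (1.03 to 1.07), 0.86 in blood endothelium and 0.62 in macrophages or monocytes (0.49 to 0.75). Relative to the common shift the range was far tighter, 0.95 to 1.34, that is 1.93-fold to 2.54-fold.

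Rpl36, another large subunit protein, was the second member off on the higher side in all 7 classes. The gene (ENSMUSG00000057863) lies on the plus strand at chr17:56613416-56614243. It stood at 3816 CPM in d/d and 2192 CPM in f/f stroma, 4407 CPM in d/d and 1565 CPM in f/f epithelium, 2713 CPM in d/d and 1325 CPM in f/f smooth muscle and 2669.9 CPM in d/d and 1197 CPM in f/f pericytes. In blood endothelium it had 2637 CPM in d/d and 1677 CPM in f/f, in macrophages or monocytes 2035 CPM in d/d and 1520 CPM in f/f and in dendritic cells 3667 CPM in d/d and 1593 CPM in f/f. The d/d value was higher in each class, and its log2 fold relative to the common shift ran from 0.74 in blood endothelium to 1.06 in epithelium. GENCODE M21 names 9 pseudogenes of Rpl36 and 6 of Rpl26, and reads of such copies can be counted with or lost from the parent, so both values carry that uncertainty. The share of reads that such copies gained or lost was not measured. Across the 73 core genes the median relative fold had a Spearman correlation of -0.19 with transcript length and -0.02 with the GC share of the transcript. The correlation was 0.0002 with the number of named pseudogenes and 0.11 with the f/f level. These are descriptions across genes that share the same libraries.

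Rps21, a small subunit protein, was off on the higher side in stroma, epithelium, smooth muscle and blood endothelium. It stood at 6655 CPM in d/d and 4337 CPM in f/f stroma, 6320 CPM in d/d and 2581 CPM in f/f epithelium, 5824 CPM in d/d and 3284 CPM in f/f smooth muscle and 4839 CPM in d/d and 3258 CPM in f/f blood endothelium. Its relative log2 fold was 0.70, 0.85, 0.59 and 0.66 in these classes, and 0.53 in pericytes, 0.49 in macrophages or monocytes and 0.36 in dendritic cells, where it did not reach 1.5-fold. Rpl21, a large subunit protein whose human gene is mutated in a form of hereditary hair loss, was off in pericytes (1759 CPM in d/d and 931 CPM in f/f, relative 0.76) and smooth muscle (1605 CPM in d/d and 881 CPM in f/f, 0.63), but stood at only 0.05 in epithelium. The 15 named pseudogenes of Rpl21 make its counts less certain. Rps23, which helps to read the codon accurately, was off in no class yet had relative folds of 0.35 to 0.58 in all 7; it was named after its values were seen.

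Rpl10 was off in 2 classes and Rpl41 in 1. Rpl10, an X-linked gene whose protein joins the large subunit late in its assembly, stood at 1996 CPM in d/d and 1573 CPM in f/f macrophages or monocytes (relative log2 fold 0.71) and at 2840 CPM in d/d and 1639 CPM in f/f dendritic cells (0.60). Its relative fold was 0.02 in epithelium and 0.19 to 0.36 in the other 4 classes; the difference between classes was not tested. Rpl41, the shortest ribosomal protein, had 14735 CPM in d/d and 6740 CPM in f/f epithelium (relative 0.69) and relative folds of 0.06 to 0.52 in the other classes.

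On the lower side, Rpl23a lay below the common shift in all 7 classes and was off in stroma, pericytes and macrophages or monocytes. Its protein stands at the tunnel exit, where it docks the signal recognition particle and chaperones, and its gene (ENSMUSG00000058546) is on the minus strand at chr11:78180932-78183584. It stood at 1010 CPM in d/d and 1649 CPM in f/f stroma (log2 fold -0.71), at 810 CPM in d/d and 1190.0 CPM in f/f pericytes (-0.56) and at 524 CPM in d/d and 1244 CPM in f/f macrophages or monocytes (-1.25). In epithelium it had 739 CPM in d/d and 719 CPM in f/f, a log2 fold of 0.04 beside a core median of 0.44. Its relative log2 fold ran from -0.88 to -0.40. GENCODE names 14 pseudogenes of Rpl23a.

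Rpl13a, which in human myeloid cells also silences inflammatory mRNAs after release from the ribosome and whose introns host small nucleolar RNAs, was off on the lower side in 4 classes. It had 152 CPM in d/d and 278 CPM in f/f blood endothelium (relative log2 fold -0.78), 111 CPM (156 UMIs) in d/d and 241 CPM (164 UMIs) in f/f macrophages or monocytes (-0.76), 194 CPM in d/d and 293 CPM in f/f pericytes (-0.76) and 178 CPM in d/d and 236 CPM in f/f smooth muscle (-0.64). Over all kept cells it was the core gene with the lowest level in f/f, at 199 CPM in d/d and 339 CPM in f/f. Rps15, a protein of the small subunit head, stood at 947 CPM in d/d and 1335 CPM in f/f smooth muscle (relative -0.73), 893 CPM in d/d and 1270.2 CPM in f/f pericytes (-0.67) and 1018 CPM in d/d and 1509 CPM in f/f dendritic cells (-0.76). It lay below the shift in the other 4 classes too, at -0.51 to -0.39.

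Rpl18 and Rpl7, both of the large subunit, were off on the lower side only in epithelium. Rpl18 had 2184 CPM in d/d and 2614 CPM in f/f epithelium (relative log2 fold -0.70), and Rpl7 had 2564 CPM in d/d and 2958 CPM in f/f (-0.64); in the other classes the relative fold of Rpl7 was -0.08 to 0.11. Rpl10a, which forms the stalk that guides spent tRNA off the ribosome, was off in blood endothelium, at 1663 CPM in d/d and 2665 CPM in f/f (-0.59). Rpl5 and Rpl11, which form a particle with 5S rRNA that can bind the p53 regulator MDM2, were off in no class. Both nevertheless lay below the shift in all 7 classes, Rpl5 at relative log2 folds of -0.53 to -0.02. Rpl11 stood at 1949 CPM in d/d and 2542 CPM in f/f pericytes (-0.54) and 2274 CPM in d/d and 3536 CPM in f/f blood endothelium (-0.55). Rpl38, which in mouse embryos is needed for translation of Hox mRNAs, stayed within -0.26 to 0.11 of the shift.

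**Figure D3:**
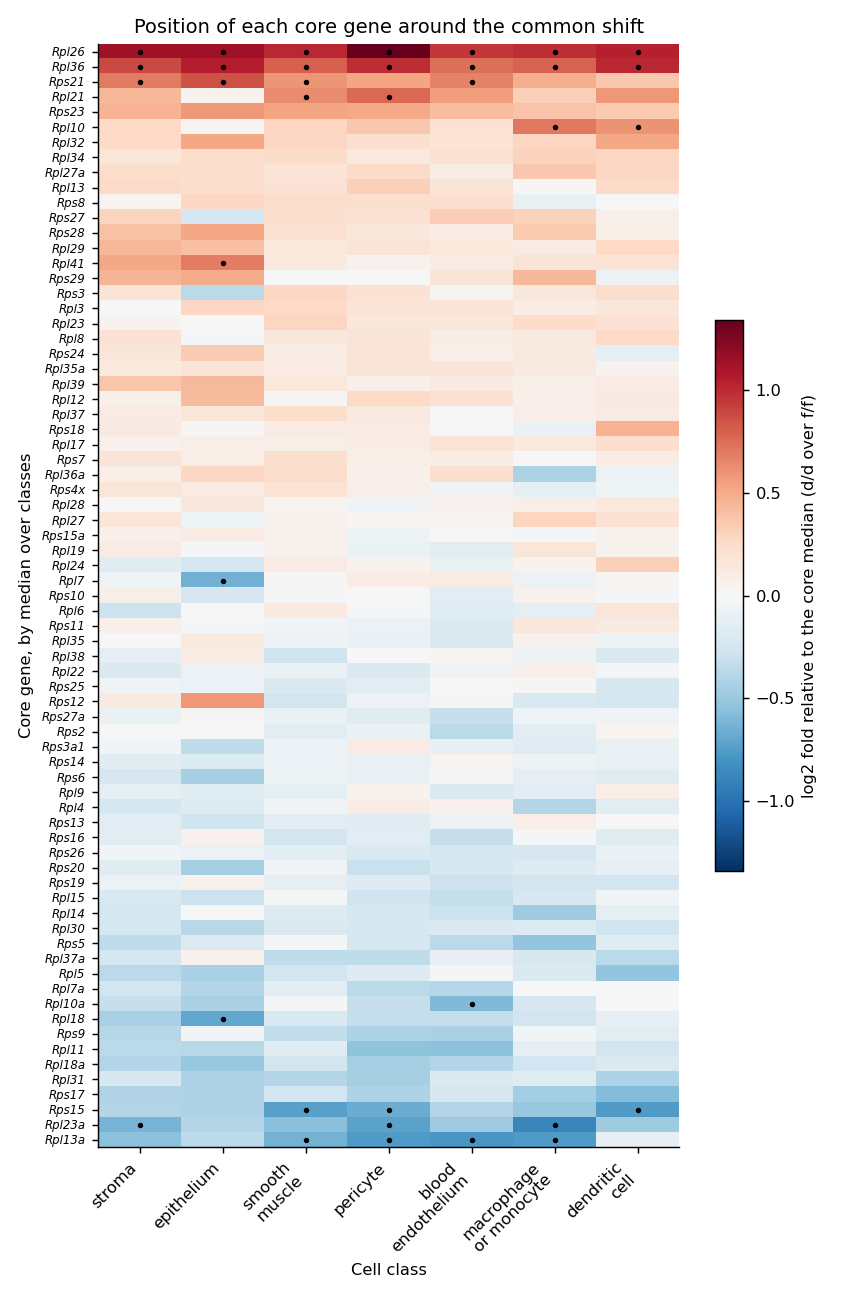
log2 fold relative to the core median (colour scale, red higher and blue lower in d/d) for the 73 core genes (rows, ordered by their median over classes) in 7 classes (columns); black dots mark at least 1.5-fold. Rpl26 and Rpl36 carry a dot in all 7 columns, and most rows carry none.

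A factor common to a class, such as TMM scaling, cannot move a fold relative to the core median, so these calls were read only against the 8 to 12 alternatives that can move it. Each kept its direction in those. Rpl26, with alternatives from 0.93 to 1.52, and Rpl36, with 0.73 to 1.23, also stayed past 1.5-fold each time. The calls that most often dropped under 1.5-fold were Rpl10a in blood endothelium (past it in 5 of 9 alternatives) and Rpl10 in dendritic cells (6 of 9).

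Because a ratio of UMIs between genes does not depend on the class total, Rpl26 was also set against Rpl23a, a pair chosen after their values were seen. There were 4.08 Rpl26 UMIs for each Rpl23a UMI in d/d and 1.41 in f/f epithelium, 2.91 in d/d and 0.86 in f/f stroma, 2.89 in d/d and 0.97 in f/f smooth muscle, and 2.73 in d/d and 0.66 in f/f pericytes. Blood endothelium had 3.02 in d/d and 1.11 in f/f, macrophages or monocytes 2.81 in d/d and 0.77 in f/f, and dendritic cells 2.76 in d/d and 0.96 in f/f. The smaller classes had the same order, with 2.40 in d/d and 1.01 in f/f NK or innate lymphoid cells, 2.24 in d/d and 0.76 in f/f T cells, and 3.38 in d/d and 0.60 in f/f lymphatic endothelium. Thus the lowest d/d value of the 10 classes, 2.24, was above the highest f/f value, 1.41; the pair was picked for this gap, so the gap is a description of it.

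**Figure D4:**
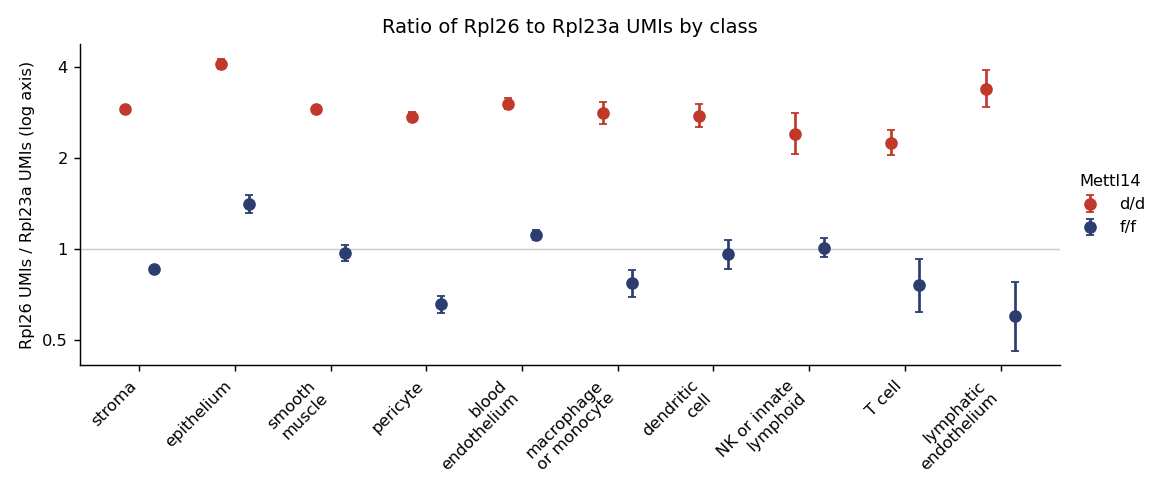
Rpl26 UMIs per Rpl23a UMI (y axis, log scale) in 10 classes (x axis) with 95% counting intervals, d/d left in red and f/f right in blue. The d/d points lie between 2.24 and 4.08 and the f/f points between 0.60 and 1.41.

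Over all kept cells the most abundant core genes in f/f were Rpl37a (8173 CPM in d/d and 10886 CPM in f/f), Rpl41 (10185 CPM in d/d and 8955 CPM in f/f), Rpl39 (8931 CPM in d/d and 8601 CPM in f/f) and Rps29 (9043 CPM in d/d and 7994 CPM in f/f). The least abundant were Rpl13a, Rpl4 (637 CPM in d/d and 794 CPM in f/f), Rpl31 (787 CPM in d/d and 1044 CPM in f/f) and Rpl5 (800 CPM in d/d and 1060.1 CPM in f/f). These are CPM and not values per length, and tags near internal priming sites or shared with copies can raise or lower a gene's level. Between classes, few core genes departed by 1.5-fold in both libraries. Relative to the core median of its class and to its own median class, only Rps29 reached 1.5-fold higher in both libraries, in macrophages or monocytes (1.89-fold in d/d and 1.62-fold in f/f), where it stood at 10678 CPM in d/d and 10193 CPM in f/f. Rps2 was the only one lower by as much in both libraries, in dendritic cells (0.65-fold in d/d and 0.65-fold in f/f), at 2818 CPM in d/d and 2419 CPM in f/f. The other 71 core genes reached it in no class in both libraries together. Some reached it in 1 library only, such as Rpl7 in epithelium (1.27-fold in d/d and 2.18-fold in f/f). Rps12 in epithelium stood at 0.89-fold in d/d and 0.52-fold in f/f. How many of all genes reached it was not computed.

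The paralogues ranged from barely detected to as abundant as their partners. Rpl3l, the striated muscle form of Rpl3, had 13 UMIs in d/d and 12 UMIs in f/f over all kept cells, where Rpl3 had 77229 in d/d and 96795 in f/f. Of the 12 f/f UMIs, 10 came from 178 epithelial cells (10 cells), against 1 UMI in 144 d/d epithelial cells; f/f stroma had 0 of Rpl3l in 4704 cells, and d/d stroma 1 UMI in 1708 cells. As a share of its pair Rpl3l made up 0.0115% in d/d epithelium (0.000292 to 0.0642%) and 0.356% in f/f epithelium (0.171 to 0.654%). Rpl39l, a form known from testis, had 20 UMIs in d/d and 5 UMIs in f/f over all kept cells, beside 359970 in d/d and 418585 in f/f of Rpl39; macrophages or monocytes held 5 of them in d/d and 2 in f/f, and blood endothelium 3 in each library. Rpl10l, an autosomal copy of Rpl10 used in the male germ line, had 0 UMIs in both libraries, which allows up to 0.0744 CPM in d/d and 0.0616 CPM in f/f (3 counts each).

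Rpl22l1, which can stand in for Rpl22 and is raised in mice that lack Rpl22, made up 54.7% of the pair in d/d and 51.6% in f/f stroma. In epithelium it made up 37.4% in d/d and 46.7% in f/f, and in macrophages or monocytes 28.4% in d/d (26.8 to 30.0%) and 40.9% in f/f (38.9 to 43.0%), where it stood at 634 CPM in d/d and 1360.1 CPM in f/f. Smooth muscle (41.6% in d/d and 41.1% in f/f), pericytes (48.8% in d/d and 48.4% in f/f) and blood endothelium (39.1% in d/d and 41.1% in f/f) had closer shares. Dendritic cells had the smallest share in both libraries, 18.2% in d/d and 19.5% in f/f. Relative to the core median and its own median class it stood at 0.36-fold there in d/d and 0.39-fold in f/f.

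Rpl36al, an intronless copy of the X-linked Rpl36a on an autosome, made up 26.3% of its pair in d/d and 16.0% in f/f over all kept cells. It was highest in epithelium, at 1535 CPM in d/d and 714 CPM in f/f (48.4% of the pair in d/d and 41.7% in f/f). In stroma it stood at 727 CPM in d/d and 403 CPM in f/f, a log2 fold of 0.85 (0.81 to 0.89), while Rpl36a stood at 2599 CPM in d/d and 2592 CPM in f/f there. Its log2 fold was 1.10 in epithelium, 0.70 in pericytes, 0.74 in smooth muscle and 0.02 in blood endothelium (-0.07 to 0.11). Reads of such near copies can be divided between them by the counting, so the split within the pair is uncertain.

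Rps27l, a paralogue of Rps27 that p53 activates, had a lower share in d/d in the vascular and muscular classes. It made up 7.45% of its pair in d/d and 16.9% in f/f pericytes, 8.99% in d/d and 15.1% in f/f smooth muscle and 6.88% in d/d and 12.3% in f/f blood endothelium. In pericytes it stood at 388 CPM in d/d and 759 CPM in f/f (log2 fold -0.97, -1.06 to -0.87), and in blood endothelium at 408 CPM in d/d and 657 CPM in f/f (-0.69). The pericyte class is the mix of clusters described above, and its part in these values was not tested. In stroma the shares were 8.98% in d/d and 9.11% in f/f, and in epithelium 10.2% in d/d and 8.39% in f/f. Over the 10 classes the d/d share was below the f/f share, with intervals apart, in 8, near it in stroma and above it in epithelium; the difference between classes was not tested. Rpl7l1, which takes part in large subunit assembly, made up 2.09% of its pair with Rpl7 in d/d and 2.93% in f/f over all cells. Rps27rt, a retrogene almost identical to Rps27, had 1598 UMIs in d/d and 1458 UMIs in f/f beside 244587 in d/d and 272931 in f/f of Rps27; reads of the pair can be misassigned, so its counts are uncertain.

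**Figure D5:**
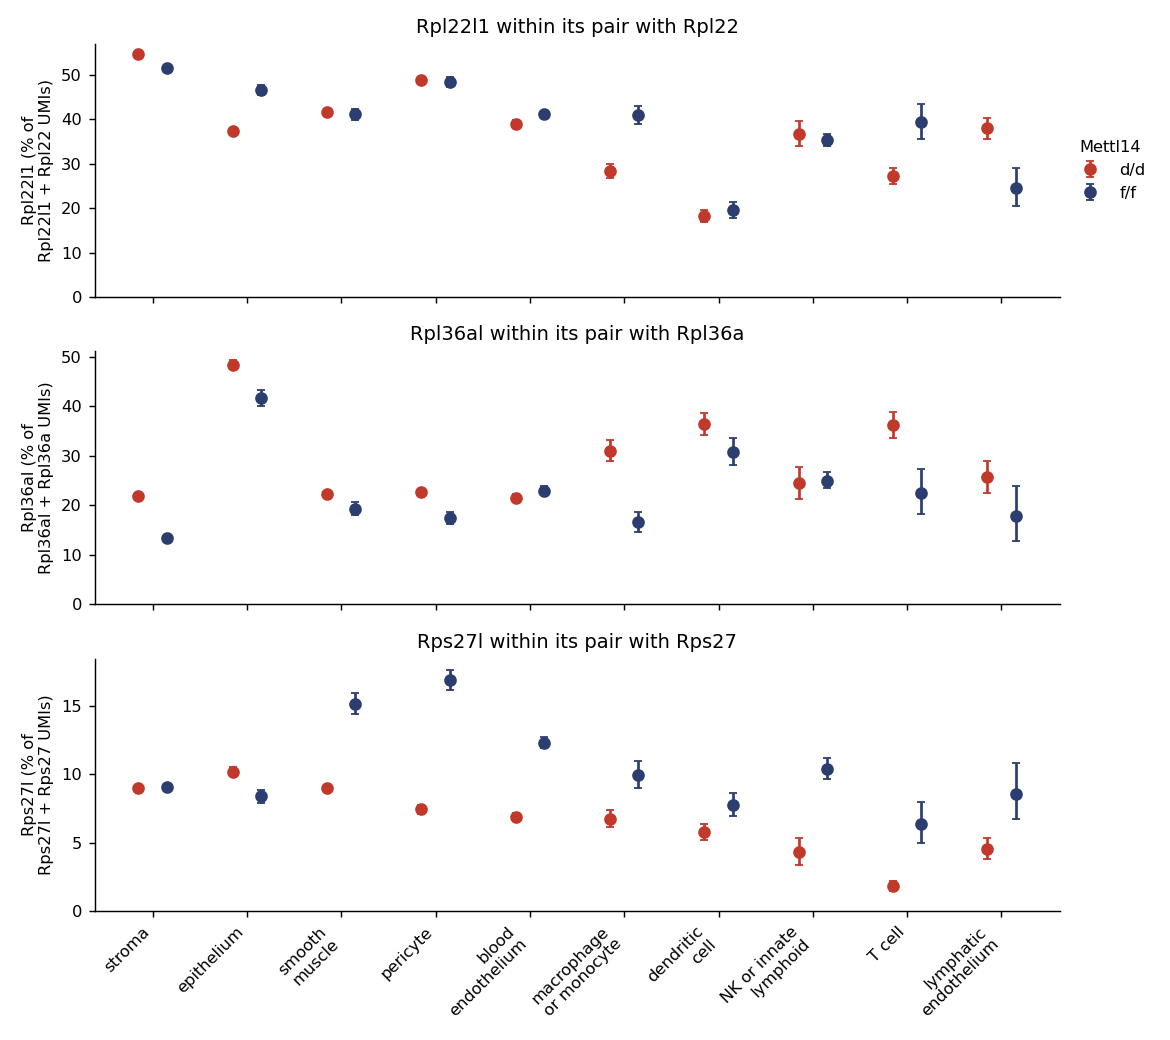
Share of a paralogue in the UMIs of its pair (y axes, percent) for Rpl22l1 with Rpl22, Rpl36al with Rpl36a and Rps27l with Rps27, in 10 classes (x axis) with 95% counting intervals, d/d left in red and f/f right in blue. Rps27l lies at 7.45% in d/d and 16.9% in f/f pericytes, and Rpl36al at 21.9% in d/d and 13.5% in f/f stroma.

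The 11 symbols that encode no ribosomal protein stood at 0.471 to 81.9 CPM in d/d and 0.247 to 86.0 CPM in f/f over all kept cells, below the lowest core gene, Rpl13a. Of the 9 with enough UMIs to compare classes, 4 (Rps6ka1, Rps6ka2, Rps6ka3 and Rps6ka5) were at least 1.5-fold higher in a class in both libraries, relative to the core median and their own median class, and 0 were lower. The share of all genes that differed as much between classes was not computed, so these counts cannot be read as particular to these symbols. Rps6ka3, which encodes the growth factor kinase RSK2, was highest in blood endothelium in both libraries, at 256 CPM in d/d and 240.2 CPM in f/f, and stood at 54.3 CPM in d/d and 67.9 CPM in f/f stroma. Rps6ka1, its relative RSK1, stood at 55.3 CPM (78 UMIs) in d/d and 103 CPM (70 UMIs) in f/f macrophages or monocytes and at 1.38 CPM in d/d and 3.77 CPM in f/f stroma. Rps6kb1, the S6 kinase downstream of mTORC1, had 64.1 CPM in d/d and 72.7 CPM in f/f stroma, and in epithelium 39.7 CPM in d/d and 38.8 CPM in f/f. Rps6kl1 had 19 UMIs in d/d and 12 UMIs in f/f over all cells.

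Some ribosomal proteins outside the naming rule were also at least 1.5-fold higher by plain fold in d/d epithelium, where 16.1% of all genes were higher by as much. They were Rpsa (3075 CPM in d/d and 1357 CPM in f/f), the stalk proteins Rplp0 (4080 CPM in d/d and 1902 CPM in f/f) and Rplp1 (5082 CPM in d/d and 2297 CPM in f/f), and Rplp2 (3429 CPM in d/d and 2038 CPM in f/f). In macrophages or monocytes, where 20.9% of all genes were lower by as much, Rpsa stood at 1289.8 CPM in d/d and 2005 CPM in f/f, and Rack1 at 1034 CPM in d/d and 1599.97 CPM in f/f. Fau was higher in d/d there, at 5168 CPM in d/d and 3793 CPM in f/f. Of the core genes themselves, 22 of 73 were at least 1.5-fold higher by plain fold in epithelium (all genes 16.1%). In macrophages or monocytes 13 of 73 were lower by as much, which is no larger a share than the 20.9% of all genes.

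Genes that build ribosomes had a median below that of all genes in stroma and above it in epithelium. Of 71 ribosome biogenesis genes in stroma, 2 were at least 1.5-fold higher and 20 lower (all genes 14.2% and 20%), with a median log2 fold of -0.27 beside -0.14 over all genes. Npm1, a nucleolar chaperone, stood at 1220 CPM in d/d and 2269 CPM in f/f, Noc2l at 49.3 CPM in d/d and 106 CPM in f/f, and Heatr1 and Ddx51 were also lower. In epithelium 14 of 65 tested were higher and 5 lower (all genes 16.1% and 21.9%), with a median of 0.24 beside -0.10 over all genes; the assembly factors Rrs1 (64.6 CPM in d/d and 19.9 CPM in f/f) and Mrto4 (72.7 CPM in d/d and 25.0 CPM in f/f) were higher, and Las1l (31.3 CPM in d/d and 165 CPM in f/f) was lower. Of 11 tested genes of RNA polymerase I and its regulators, which transcribe ribosomal RNA genes, 5 were higher and 0 lower in epithelium (the same shares of all genes apply). Among them were Polr1a (75 UMIs in d/d and 24 UMIs in f/f) and Myc (152 UMIs in d/d and 39 UMIs in f/f). Polr1a, Myc and Rrs1 met the minimum of 50 UMIs only in d/d. The d/d total was larger there (4083705 UMIs in d/d and 2162998 UMIs in f/f). The minimum thus favours genes higher in d/d epithelium, and the counts of genes higher or lower there cannot be read as a direction. In stroma 0 of the 15 RNA polymerase I genes were higher and 3 lower, and the share lower equals the 20% of all genes. Polr1a stood in stroma at 27.4 CPM in d/d and 48.2 CPM in f/f. In the other classes the biogenesis counts were 2 higher and 11 lower of 69 in smooth muscle (all genes 10.9% and 14.9%) and 11 and 12 of 68 in pericytes (13.8% and 22.1%). They were 3 and 8 of 67 in blood endothelium (11.4% and 11.0%) and 0 and 8 of 17 in macrophages or monocytes (21.7% and 20.9%). In dendritic cells they were 0 and 1 of 10 (16.2% and 22.0%). The RNA polymerase I counts, with the same shares of all genes, were 1 and 1 of 13 in smooth muscle and 1 and 1 of 12 in pericytes. They were 0 and 0 of 11 in blood endothelium, 0 and 1 of 5 in macrophages or monocytes and 0 and 1 of 4 in dendritic cells.

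Of 37 translation factor genes, some of which are known to carry TOP motifs, 0 were higher and 10 lower in stroma (all genes 14.2% and 20%), with Eif4b at 147 CPM in d/d and 312 CPM in f/f and Btf3 at 717 CPM in d/d and 1182 CPM in f/f. In macrophages or monocytes 3 of 37 were higher and 10 lower (all genes 21.7% and 20.9%): Eef1g had 242 CPM in d/d and 652 CPM in f/f, and Eif4e, the cap-binding factor, 159 CPM (224 UMIs) in d/d and 58.9 CPM (40 UMIs) in f/f. In epithelium 0 were higher and 3 lower of 37 (all genes 16.1% and 21.9%), with a median of -0.01 beside the 0.44 of the core genes. In smooth muscle 2 of 37 were higher and 3 lower (10.9% and 14.9%), and in pericytes 3 and 3 of 37 (13.8% and 22.1%). In blood endothelium the counts were 1 and 0 of 37 (11.4% and 11.0%), and in dendritic cells 4 and 2 of 35 (16.2% and 22.0%). Of the 11 genes of mTORC1 and TOP regulation, 1 was higher and 3 lower in stroma (all genes 14.2% and 20%). Eif4ebp1, which blocks cap-dependent translation, stood at 98.7 CPM in d/d and 54.6 CPM in f/f there, the mTORC1 subunit Mlst8 at 6.99 CPM (91 UMIs) in d/d and 14.3 CPM (483 UMIs) in f/f, and Mtor at 12.9 CPM in d/d and 24.8 CPM in f/f. In epithelium 1 of 9 was higher, Eif4ebp1 (52.6 CPM in d/d and 14.8 CPM in f/f), and 1 lower (all genes 16.1% and 21.9%). Eif4ebp1 had 215 UMIs in d/d and 32 UMIs in f/f there, so it met the minimum of 50 UMIs only in d/d. In the other classes the counts were 0 higher and 1 lower of 10 in smooth muscle (all genes 10.9% and 14.9%) and 2 and 1 of 10 in pericytes (13.8% and 22.1%). They were 0 and 2 of 11 in blood endothelium (11.4% and 11.0%) and 0 and 1 of 6 in macrophages or monocytes (21.7% and 20.9%). In dendritic cells they were 1 and 1 of 2 (16.2% and 22.0%). With so few genes tested, these counts cannot be told from the shares of all genes. Tsc2, a brake on mTORC1, was lower in d/d in stroma (15.2 CPM in d/d and 24.8 CPM in f/f), epithelium (50 UMIs in d/d and 48 UMIs in f/f, 12.2 CPM in d/d and 22.2 CPM in f/f) and smooth muscle (24.4 CPM in d/d and 41.0 CPM in f/f).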

How the data were processed

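Per the labels' protocols, uteri were digested with enzymes, strained, cleared of red cells and run on a droplet system with 3′ tags. The authors deposited unnormalized counts of UMIs for each gene in each barcode. Per the submitters' processing notes Cell Ranger 3.0.1 and mm10 were used, whereas the file headers name cellranger 6.0.1, and which version made the matrices was not settled. No barcode had fewer than 500 UMIs.

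Cells with at least 1000 UMIs, 500 genes and at most 20% mitochondrial UMIs were kept. Scrublet scores in scanpy 1.11.5 marked the top 0.8% per 1000 barcodes as doublets (355 d/d, 533 f/f), which were removed; its automatic threshold marked 400 d/d and 0 f/f barcodes and did not work in f/f. Cells were clustered without integration on 2000 variable genes, among which the only member was Rpl39l, and 30 components (leidenalg 0.10.2, resolution 1). Clusters were named from marker lists; an epithelial sub-cluster with markers of other classes was set aside after its genes were seen. Where identifiers shared a symbol, the one with the most UMIs kept it (36 others were kept apart).

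For each class the UMIs of a library were added up and divided by their total. A comparison needed 100 cells per library and a level 20. Intervals are exact (Clopper-Pearson for shares, Poisson for sums, conditional binomial for ratios) and were tested on simulated data. Alternatives used TMM in edgeR 4.0.16 and other filters and clusterings. Named are the paralogues, up to 4 core members per class and direction that were off the common shift, the 4 highest and 4 lowest in f/f, Rpl5, Rpl11, Rpl38, Rpl10a and up to 4 genes per other list. Members and lists were chosen with earlier results of these data known. Sequences are RefSeq's (GRCm38.p6) and other coordinates GENCODE M21's.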

Additional observations from a re-analysis of the deposited data

Results flagged for a closer look

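The summed core share was flagged because the difference between the libraries went one way in some cell classes and the other way in others. Its log2 ratio (d/d over f/f) was 0.5144 in epithelium, 0.2753 in smooth muscle, 0.2145 in dendritic cells and 0.1668 in pericytes, but -0.0167 in stroma, -0.1063 in blood endothelium and -0.319 in macrophages or monocytes; the sign of the last 3 turned under at least 1 other setting. With 1 library per genotype the difference between classes was not tested.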

How the results depend on the processing

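No paired analysis was possible because each genotype has 1 library. Values here are log2 ratios (d/d over f/f) of the summed core share, and where one moved the cause was not tested. Smooth muscle, pericytes, dendritic cells and epithelium stayed above 0 under every alternative run. TMM scaling gave 0.6157 in dendritic cells, -0.071 in blood endothelium, 0.4086 in pericytes, 0.7188 in epithelium and 0.4516 in smooth muscle, and turned the sign in stroma (0.031) and macrophages or monocytes (0.1474, with a core median of 0.0996). The TMM factors (log2, d/d over f/f) were -0.47 in macrophages or monocytes, -0.40 in dendritic cells, -0.24 in pericytes, -0.20 in epithelium and -0.18 in smooth muscle, and dividing by them moves every fold of the class up by as much. Cells of 3000 to 10000 UMIs gave 0.2582 in dendritic cells, -0.4468 in macrophages or monocytes, 0.2247 in pericytes, 0.2677 in epithelium, 0.236 in smooth muscle and -0.0823 in stroma, and turned the sign in blood endothelium (0.0538, core median 0.0453). The largest cluster shared by the libraries gave -0.0763 in blood endothelium, 0.2935 in pericytes, 0.4148 in epithelium, 0.2608 in smooth muscle and 0.2759 in dendritic cells, where 7 members were off the common shift instead of 4, and turned the sign in stroma (0.248, core median 0.2081). Weighting cells equally gave -0.183 in macrophages or monocytes, -0.0624 in blood endothelium, 0.3025 in pericytes, 0.4946 in epithelium, 0.3964 in smooth muscle and -0.0308 in stroma. Keeping doublets gave -0.2565 in stroma, where 1057 d/d cells then fell in an unnamed cluster, and 0.1227 in dendritic cells, -0.3876 in macrophages or monocytes, 0.0654 in pericytes and 0.1141 in smooth muscle. Totals without mitochondrially encoded genes gave -0.3383 in macrophages or monocytes, -0.1168 in blood endothelium, 0.1612 in pericytes, 0.5226 in epithelium, 0.2676 in smooth muscle and -0.0197 in stroma. A minimum of 2000 UMIs gave -0.4117 in macrophages or monocytes, 0.1567 in pericytes, 0.2493 in smooth muscle and -0.0202 in stroma. Clustering each library separately gave 0.2554 in dendritic cells, -0.3296 in macrophages or monocytes, 0.1402 in pericytes and -0.0143 in stroma. A limit of 10% mitochondrial UMIs gave -0.3286 in macrophages or monocytes, -0.1022 in blood endothelium and 0.2671 in smooth muscle. In settings chosen after seeing the data, epithelium stood at 0.6303 against f/f luminal-like cells, with 14 members off the shift instead of 6, at 0.4109 against f/f glandular-like cells and at 0.3982 with the mixed sub-cluster kept. The other counts of members off the shift, 85 in all, stayed within 1.5 times. Settings that only scale a whole class, such as TMM or totals without mitochondrially encoded genes, cannot move such a count. Counts under those settings therefore say nothing about stability.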
